A study of Mus musculus with 24 samples.

Results

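GFP-negative cells of mouse optic vesicle organoids were compared between day 4 and day 5 of culture, using the 3 libraries of day 5 GFP-negative cells against the 3 libraries of day 4 GFP-negative cells. These 6 libraries of the 24 in the series were chosen by their sample labels, and all genes of the table entered the comparison. The organoids came from 1 line of mouse embryonic stem cells, Rx-GFP K/I EB5, in which a GFP cassette is knocked into the Rax locus, so every group carries this allele. The series follows unsorted live cells on days 0 to 3 and cells sorted by GFP on days 4 and 5, in biological triplicates of 24 pooled organoids each. Matrigel, a basement membrane extract, was added on day 1, so both days compared here followed it, and day 0 is the day of seeding. The labels name GMEM with knock-out serum replacement as the differentiation medium, whereas the study's methods name a chemically defined medium for initial organoids. Per those methods, the sorting gates were placed to keep as many cells as possible, and the GFP-negative sample therefore holds some cells with a low GFP signal. It is a gate on 1 reporter and not a purified cell type, and all samples come from that single line.

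Rax is a homeobox gene of the eye field, the part of the anterior neural plate that forms the retina. Cells outside the gate can be late pluripotent cells, cells of other parts of the neural plate, or cells of other germ layers. As cells leave the pluripotent state they lose Pou5f1 and the epiblast factor Fgf5. Cells that pass through a primitive streak state switch on T-box genes and Nodal antagonists for a short time. The neural plate is then divided into telencephalon, diencephalon, midbrain and hindbrain by homeobox, zinc finger and nuclear receptor factors, while Shh and Wnt ligands act as signals along its axes. Blood vessels start from mesodermal precursors that express Tal1, Fli1 and Sox18.

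Totals of normalized counts lay between 39849111 and 45695739 in the 6 libraries. The depth estimated from the worth of 1 read was 38800000 to 53400000 assigned reads. The gates were checked against the reporter locus. Rax was at 946 to 1018 normalized counts in day 4 GFP-negative libraries against 9100 to 9967 in day 4 GFP-positive libraries, and at 412 to 517 against 8075 to 8921 on day 5. Day 4 replicate 3 and day 5 replicate 1 stood apart. Their deviations from their group means correlated across genes tested (Pearson's r = 0.391, n = 21005 genes, a description of 2 libraries), and more so among pseudogenes (0.550) than among protein-coding genes (0.336). Since 1 such library is in each group, the count of all called genes is also given without both. For the gene lists it is given where it changed. The mitochondrial chromosome took 1.73% of counts in day 5 replicate 1 and 2.80% to 3.85% in the other 5 libraries. In bulk samples fewer cells of a type and less RNA per cell cannot be told apart, and p-values measure the spread between samples of a group, pooled over all 8 groups of the series.

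Of 21005 genes tested, 160 entries were higher on day 5 (0.762%) and 107 were lower (0.509%). A gene was called where its log2-fold-change exceeded 1.5 in size and its limma p, adjusted by Benjamini-Hochberg, was below 0.001. The higher entries stand for 158 symbols, because 2 entries repeat a gene on a patch sequence. Among them were 136 protein-coding genes and no pseudogene, and among the lower entries 97 protein-coding genes and 2 pseudogenes. In every called entry the 3 day 5 values lay outside the range of the 3 day 4 values, as they did for 18.3% (higher) and 15.9% (lower) of all genes tested. The median change of all genes was 0.01 on the log2 scale. Leaving out 1 of the 6 libraries left 85 to 112 higher and 71 to 81 lower genes. The number of higher genes was 85 without day 5 replicate 1 or 3, 89 without day 5 replicate 2 or day 4 replicate 1, and 101 without day 4 replicate 2. The number of lower genes was 71 without day 4 replicate 1 or day 5 replicate 2. Without both libraries that stood apart there were 65 higher and 58 lower genes, of which 60 and 55 were among the calls above. No called gene that could still be tested changed sign, which was fixed in advance because the days did not overlap in any called entry. Beside the largest changes and the called members of the gene lists, further members are named with values, and these were chosen after their values were seen.

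**Figure D1:**
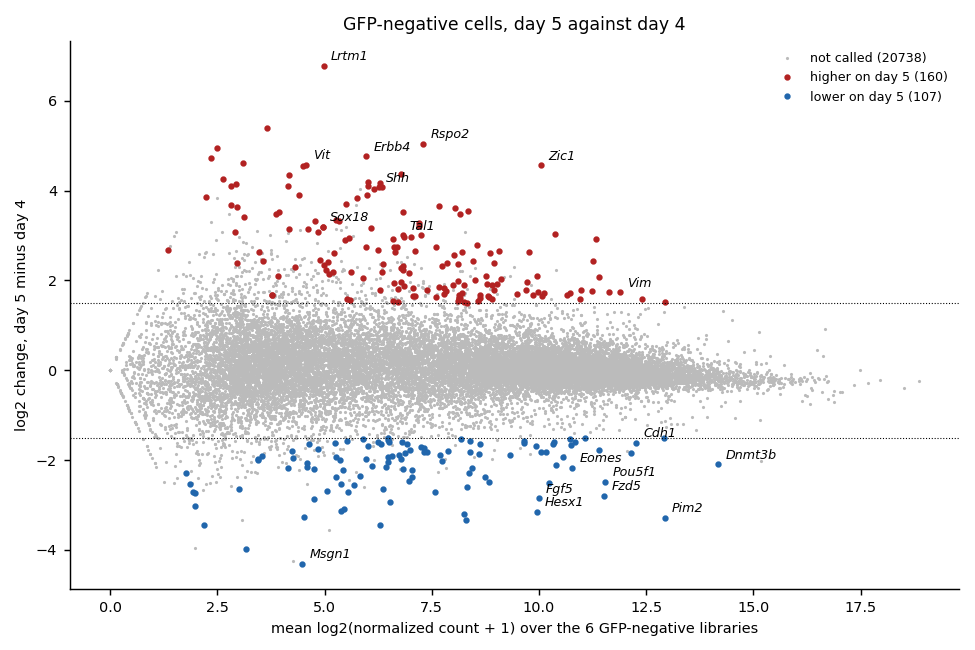
Change in GFP-negative cells from day 4 to day 5 (vertical axis, log2) against the mean level over the 6 libraries (horizontal axis, log2 of the normalized count plus 1), 1 point per gene tested. Red points are the 160 higher and blue points the 107 lower entries, dotted lines mark the fold threshold of 1.5, and among called genes Lrtm1 stands highest at 6.79 while Msgn1 stands lowest at -4.31.

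Genes are given first from the 12 largest falls at a group mean of 100 or more, leaving out predicted gene models and clones. Pim2, a survival kinase of growing cells (chrX:7878262-7883432, mm10), was at 26362, 21447 and 25943 normalized counts on day 4 and at 2980, 2642 and 2003 on day 5. Its log2-fold-change was -3.29 ± 0.18 (SE, limma adjusted p = 6.39e-10). All 3 day 5 values were far below all 3 day 4 values, and unsorted day 3 libraries held 51722 to 64663. Hesx1, a homeobox repressor of the anterior neural plate (chr14:26994416-27002329), was at 3102, 2803 and 3045 on day 4 and at 436, 307 and 278 on day 5 (log2-fold-change -3.15 ± 0.19, limma adjusted p = 1.32e-09). Fzd5, a Wnt receptor of the eye field (chr1:64730558-64737751), was at 9700, 8101 and 5975 on day 4 and at 1114, 1143 and 1099 on day 5 (-2.80 ± 0.23, limma adjusted p = 1.09e-07). Unlike Pim2, both genes lay lower in unsorted day 3 cells than in day 4 GFP-negative cells, at 836 to 1332 for Hesx1 and 5170 to 5929 for Fzd5.

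Pcsk2, a prohormone convertase, fell from 840 to 1011 on day 4 to 82.7 to 113 on day 5 (log2-fold-change -3.21). Cdh9, a classical cadherin, fell from 90.2 to 167 to between 12.9 and 13.5 (-3.13), and Mpp4, a scaffold protein known from photoreceptor synapses, fell from 107 to 153 to between 10.1 and 19.7 (-3.09). Bcl11a, a zinc finger repressor, was at 239 to 278 on day 4 and 26.5 to 45.2 on day 5 (-2.93). Their limma adjusted p lay between 5.57e-08 (Cdh9) and 7.89e-06 (Mpp4), and each call held in all 6 fits that left out 1 library. Caln1, a calcium-binding protein of neurons, and Ermn, a cytoskeletal protein known from myelin, also fell (-3.44 and -3.34), but both calls were lost whichever of the 6 libraries was left out. Mup6 fell from 81.3 to 159 to between 13.3 and 23.2 (-2.72). It belongs to the major urinary proteins, a family of near-identical genes among which reads cannot be assigned with certainty.

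Formative and general pluripotency genes were among those that fell. Of 15 tested, 5 were lower on day 5 and 0 higher, against 0.509% lower among all genes, and the median change was -1.39. Pou5f1, the core pluripotency factor, was at 7450, 6176 and 7636 on day 4 and at 1538, 1193 and 1094 on day 5 (log2-fold-change -2.48 ± 0.18, limma adjusted p = 2.25e-08). Fgf5, a growth factor of the late epiblast, went from 2989, 2582 and 2674 to 342, 386 and 411 (-2.85 ± 0.21). Dnmt3b, the de novo DNA methyltransferase of the epiblast, went from 43398, 34664 and 37436 to 9353, 8932 and 8664 (-2.09 ± 0.29). The groups did not overlap for any of these genes. Utf1, a chromatin factor of pluripotent cells, went from 2666 to 3661 to between 838 and 1236 (-1.68), and L1td1, an RNA-binding protein of the same cells, from 1906 to 2619 to between 683 and 863 (-1.61). Without the libraries that stood apart 2 of the 5 calls remained, those of Pou5f1 and Fgf5, and the call of Utf1 held in 3 and that of L1td1 in 2 of the 6 fits that left out 1 library.

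None of the 15 naive pluripotency genes passed both thresholds. Their median change was -0.50, 13 of 15 were below 0, and 9 of 15 had no overlap between the groups in the lower direction, against 15.9% of all genes. Nanog, a core factor of the naive state, was at 2663, 2449 and 2190 on day 4 and at 949, 1131 and 888 on day 5 (log2-fold-change -1.30, limma adjusted p = 0.000129), short of the fold threshold. Dppa5a and Zfp42, which mark the naive state, were not called. Dppa5a was at 2505 to 3068 on day 4 and 1702 to 2236 on day 5, and Zfp42 at 1232 to 1531 and 819 to 956, with log2-fold-changes of -0.50 and -0.60 that did not pass the test. Day 5 GFP-negative cells thus still held 819 to 956 normalized counts of Zfp42, where day 5 GFP-positive cells held 64.2 to 84.5.

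Of 16 genes of the primitive streak and the mesendoderm, 5 were called lower on day 5, against 0.509% of all genes, and 0 higher, with a median change of -1.65. Msgn1, a basic helix-loop-helix factor of presomitic mesoderm, was at 85.7, 104 and 108 on day 4 and at 2.93, 5.42 and 4.04 on day 5 (log2-fold-change -4.31 ± 0.59, limma adjusted p = 4.66e-05). Day 3 libraries held 1.83 to 19.6 of it, below all 3 day 4 libraries. Lefty2, an inhibitor of Nodal, went from 323, 671 and 533 to 50.4, 95.9 and 82.5 (-2.71 ± 0.34). Eomes, a T-box factor of the streak, went from 2964, 4243 and 4146 to 629, 921 and 975 (-2.17 ± 0.29). Mixl1, a homeobox factor of mesendoderm, went from 543, 1088 and 844 to 102, 166 and 127 (-2.61 ± 0.46), and Tbx6, a T-box factor of paraxial mesoderm, from 231 to 392 to between 77.0 and 89.3 (-1.82). For all 5 genes day 4 GFP-negative cells lay above both later cells of the gate and GFP-positive cells of the same day, where Eomes was at 137 to 311.

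Brachyury (T), the standard marker of the streak, did not follow them past the thresholds. It was at 1672, 2414 and 1689 on day 4 and at 1226, 875 and 1171 on day 5 (log2-fold-change -0.81, limma adjusted p = 0.0789). The summed level of the 16 genes was 10604 to 16215 on day 4 and 5095 to 5309 on day 5. It was 19385 to 22765 in unsorted day 0 libraries, so it is not a measure of streak cells alone. Without the libraries that stood apart 0 of the 5 calls remained, and the call of Mixl1 was lost whichever of the 6 libraries was left out. The log2-fold-changes in the fit without both libraries were -4.07 for Msgn1, -2.37 for Lefty2, -1.90 for Eomes and -2.40 for Mixl1.

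Of 16 surface ectoderm genes 2 fell, against 0.509% of all genes, and 0 rose. Cdh1, which encodes E-cadherin, was at 10202, 8394 and 7499 on day 4 and at 3047, 2485 and 2945 on day 5 (log2-fold-change -1.62 ± 0.29, limma adjusted p = 0.000692). Epcam, the epithelial cell adhesion molecule, was at 4013, 3397 and 3561 on day 4 and at 1387, 1146 and 1304 on day 5 (-1.52 ± 0.12, limma adjusted p = 4.38e-08). The median change of the list was 0.02, with 8 genes above and 8 below 0, and both called genes are also expressed in pluripotent cells. The keratins that define stratified epidermis were near absent, as Krt5 and Krt14 were under 10 in all 6 libraries. The call of Cdh1 was lost whichever of the 6 libraries was left out, and that of Epcam held in 4 of these 6 fits. The fit without both libraries that stood apart called 1 of the list lower.

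**Figure D2:**
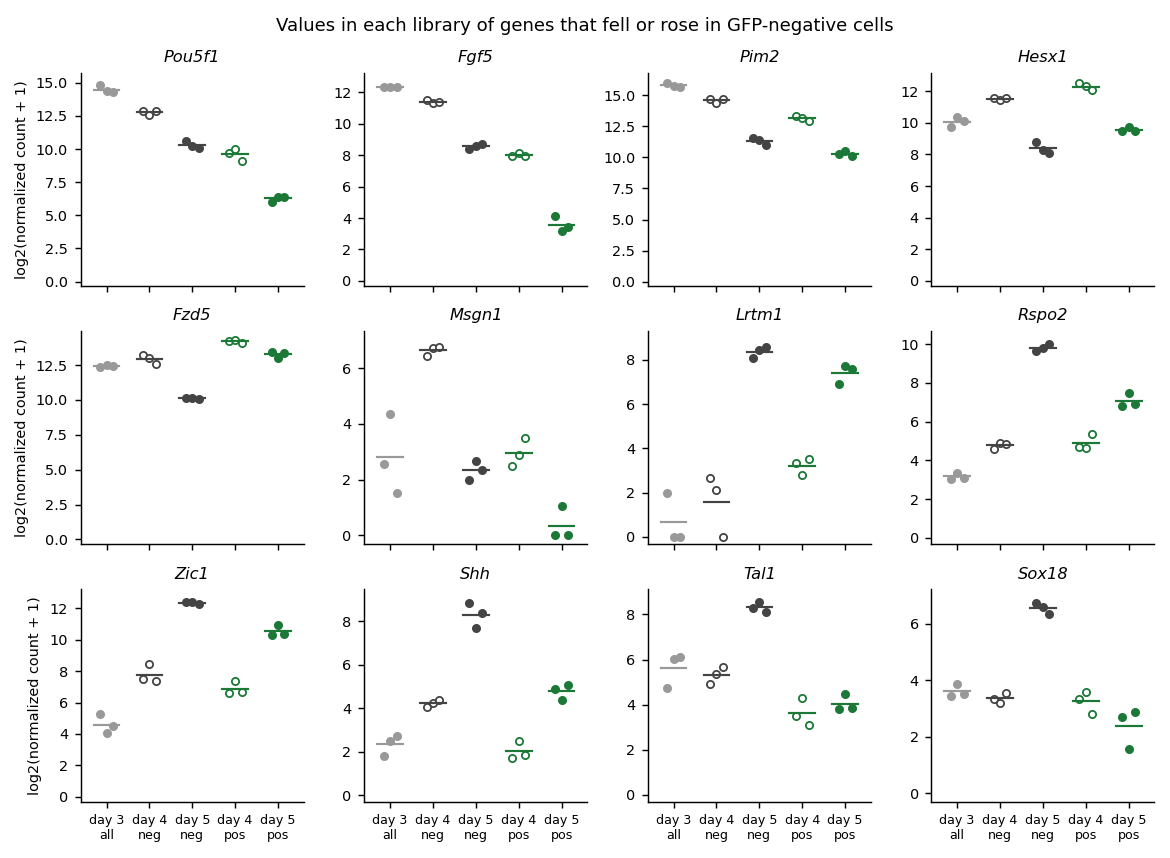
Values of 12 genes in each library (vertical axis, log2 of the normalized count plus 1) of unsorted day 3 cells (grey), GFP-negative cells (black) and GFP-positive cells (green) on day 4 (open) and day 5 (filled), with 1 point per library and a bar at the mean of 3. Pou5f1, Fgf5, Pim2, Hesx1, Fzd5 and Msgn1 were lower in day 5 than in day 4 GFP-negative cells and Lrtm1, Rspo2, Zic1, Shh, Tal1 and Sox18 were higher, and for Tal1 and Sox18 the GFP-positive libraries stayed below the day 5 GFP-negative ones on both days.

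Of the rises, the 12 largest at a group mean of 100 or more are taken first, leaving out predicted gene models and clones. Barhl2 and Shh, which are among the 12, are given with the forebrain genes. Lrtm1, which encodes a leucine-rich repeat membrane protein (chr14:29018208-29033645, mm10), was at 5.24, 3.33 and 0 normalized counts on day 4 and at 273, 344 and 383 on day 5. Its log2-fold-change was 6.79 ± 0.63 (limma adjusted p = 4.37e-07), a value that depends on the pseudocount because of the low day 4 level. Rspo2, a secreted agonist of Wnt signalling (chr15:43020794-43170826), was at 22.9, 28.4 and 28.1 on day 4 and at 796, 900 and 1024 on day 5 (5.04 ± 0.31, limma adjusted p = 1.32e-09). Zic1, a zinc finger factor of the dorsal neural tube (chr9:91358058-91365810), was at 180, 343 and 164 on day 4 and at 5252, 5355 and 4902 on day 5 (4.57 ± 0.47, limma adjusted p = 1.91e-06). In each of the 3 genes the lowest day 5 library was many times above the highest day 4 library, and each call held without the libraries that stood apart.

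Foxd2, a forkhead factor, was at 8.23, 4.06 and 1.17 on day 4 and at 164, 66.6 and 117 on day 5 (log2-fold-change 4.55). Zic4, the neighbour of Zic1 in the genome, was at 10.5, 23.4 and 11.2 and then at 251, 251 and 326 (4.19), although this call was lost whichever of the 6 libraries was left out. Fam181a was at 9.42, 20.7 and 23.5 and then at 380, 209 and 305 (4.04). Erbb4, a receptor for neuregulins, rose from 7.76 to 17.5 to between 294 and 406 (4.77), and Vit, which encodes the matrix protein vitrin, from 3.25 to 4.69 to between 103 and 134 (4.58). Col3a1, a fibrillar collagen of mesenchyme, rose from 12.7 to 28.9 to between 220 and 433 (4.17), and Hapln1, the link protein of hyaluronan matrix, from 11.2 to 27.8 to between 250 and 437 (4.09). Limma adjusted p for these genes lay between 3.11e-08 (Vit) and 0.000597 (Hapln1), and the Hapln1 call was lost whichever of the 6 libraries was left out.

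Forebrain genes made up one of the lists with most rises. Of 23 tested, 7 were higher on day 5, against 0.762% of all genes, and 1, Hesx1, was lower, with a median change of 0.92. Shh, the secreted ventral signal, was at 15.6, 17.9 and 19.9 on day 4 and at 455, 205 and 332 on day 5 (log2-fold-change 4.07 ± 0.60, limma adjusted p = 9.75e-05). Barhl2, a homeobox factor of the diencephalon, was at 14.6, 17.8 and 47.0 and then at 484, 524 and 497 (4.38 ± 0.55). Nr2e1, a nuclear receptor of forebrain progenitors, was at 43.5, 74.4 and 54.8 and then at 704, 666 and 791 (3.65 ± 0.50). These 3 genes had no overlap between days, and the day 3 libraries held 10.7 or less of each.

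Among the other forebrain genes that rose were a pair of orphan nuclear receptors. Nr2f1 rose from 263 to 403 to between 1976 and 2279 (log2-fold-change 2.63), and Nr2f2 from 404 to 632 to between 1774 and 2280 (2.11), and both pattern the forebrain. The calls of Nr2f1 and Nr2f2 were lost whichever of the 6 libraries was left out, and without the libraries that stood apart 2 of the 7 rises remained called. Of the forebrain genes that were not called, Nkx2-1, the factor of the hypothalamus and ventral telencephalon, was at 8.32 to 30.5 on day 4 and 8.91 to 13.5 on day 5. Emx2, a dorsal telencephalic factor, was at 1250 to 1782 and 2812 to 3380 (1.08, limma adjusted p = 0.363). Both lists with 7 rises were looked up in the promoter table of RefSeq (build GRCm38.p6). It held 4 of the 7 forebrain genes (Barhl2, Nr2e1, Nr2f1 and Nr2f2) and 3 of the 7 endothelial genes (Tal1, Tek and Tie1) and gave the same start as the deposited table for Barhl2, Tal1 and Tek, whose 250 upstream bases are therefore shown.

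Genes of midbrain and hindbrain had a median change of 1.14, and 2 of 18 were called higher, against 0.762% of all genes, and 0 lower. Only 1 was called higher in the fit without both libraries that stood apart. Wnt1 and En2, which mark the midbrain and its boundary with the hindbrain, did not pass both thresholds. Wnt1 was at 491, 578 and 818 on day 4 and at 3304, 2687 and 2794 on day 5 (2.24 ± 0.65, limma adjusted p = 0.0293), and En2 at 447 to 576 and 942 to 1439 (1.23, limma adjusted p = 0.000166). The days did not overlap for Wnt1, and the error is 1 estimate of its spread over all 8 groups of the series. Of 25 Hox genes tested, which are known to mark the hindbrain and trunk, 0 were called. The median of Hox genes was 1.06, 24 of 25 were above 0, and 9 of 25 had higher values without overlap, against 18.3% of all genes. Their summed level was 653 to 1461 on day 4 and 1158 to 2275 on day 5, and 373 to 1188 in unsorted day 0 libraries. Hoxb9, a trunk member, was at 35.8, 126 and 85.2 and then at 186, 187 and 197 (1.37, limma adjusted p = 0.0221).

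Of 14 neural crest genes, 2 were higher, against 0.762% of all genes. Ednrb, the endothelin receptor of migrating crest, rose from 42.4 to 76.4 to between 241 and 304 (log2-fold-change 2.16, limma adjusted p = 9.45e-05), and Snai2, a repressor of epithelial genes, from 24.7 to 51.8 to between 139 and 257 (2.18, limma adjusted p = 0.000209). Sox10, the defining factor of crest derivatives, was at 219, 300 and 317 on day 4 and at 573, 420 and 329 on day 5 (0.64, limma adjusted p = 0.371). Placode genes moved in both directions, as 1 of 11 rose and 1 fell, against 0.762% and 0.509% of all genes. Foxe3, a forkhead factor of the lens placode, was at 0.904, 0 and 0 on day 4 and at 16.4, 19.6 and 15.4 on day 5 (3.86, limma adjusted p = 3.56e-06). Foxi3, a forkhead factor of the early placode region, was at 180, 158 and 209 and then at 54.6, 37.6 and 30.5 (-2.16, limma adjusted p = 0.000623). The call of Foxi3 was lost whichever of the 6 libraries was left out, and that of Snai2 held in 3 of these 6 fits. The fit without both libraries that stood apart called 1 crest gene higher, and 1 placode gene higher and 0 lower.

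Endothelial and blood genes made up the other list with 7 rises. Of 21 tested, 7 were higher, against 0.762% of all genes, and 0 lower, and the median change of 1.38 was the highest of the 28 lists. Sox18, a factor of early endothelium (chr2:181669836-181671640, mm10), was at 9.12, 8.07 and 10.6 on day 4 and at 106, 94.9 and 79.5 on day 5 (log2-fold-change 3.20 ± 0.34, limma adjusted p = 2.04e-06). Tal1, a basic helix-loop-helix factor of blood and vessel precursors (chr4:115056426-115071755), was at 29.4, 40.3 and 49.7 on day 4 and at 309, 379 and 278 on day 5 (3.00 ± 0.37, limma adjusted p = 1.42e-05). Tie1, an endothelial receptor kinase, was at 11.3 to 16 on day 4 and then at 91.7, 102 and 80.8 (2.61 ± 0.27). The ranges of day 3 and day 4 overlapped for these 3 genes, with 9.75 to 13.6 for Sox18, 25.4 to 68.3 for Tal1 and 15.1 to 28.4 for Tie1 on day 3. Their calls held in all 6 fits that left out 1 library.

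The other 4 rises were smaller or less stable. Fli1, an ETS factor of vessels, was at 9.72, 13.3 and 30.5 on day 4 and at 146, 146 and 104 on day 5 (log2-fold-change 2.96), and Cdh5, the cadherin of endothelial junctions, was at 19.2, 19.5 and 32.8 and then at 222, 170 and 110 (2.74). Lmo2, a partner of Tal1, rose from 87.1 to 161 to between 363 and 426 (1.69), and Tek, the angiopoietin receptor, from 50.6 to 68.9 to between 161 and 189 (1.52). The Cdh5 and Tek calls were lost whichever of the 6 libraries was left out and the Fli1 call held in 1 of these fits. Without the libraries that stood apart 4 of the 7 rises remained called, and 4 with quantile normalization.

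The earlier genes of this lineage did not pass the test. Kdr, the VEGF receptor of mesodermal and endothelial precursors, was at 519, 1074 and 1401 on day 4 and at 1087, 1481 and 953 on day 5 (log2-fold-change 0.32, limma adjusted p = 0.704), and Etv2, which acts upstream of Tal1, was at 71.8, 108 and 188 and then at 208, 197 and 115 (0.56). Their days overlapped. Pecam1, a junction protein also found in pluripotent cells, was at 254 to 341 on day 4 and 170 to 333 on day 5. Emcn, a marker of mature vessels, and Ptprc, the pan-leukocyte antigen, were under 10 in all 6 libraries and were not tested. The embryonic globin Hbb-bh1 was not tested either, and it was at 54.3 in day 4 replicate 3, at 1122 in day 5 replicate 2 and at 0 in the other 4 libraries. The blood factors Gata1 and Runx1 were not called, and Runx1 was at 74.2 to 84.2 on day 4 and 75.7 to 132 on day 5. The summed level of the list was 4006 to 5355 on day 4 and 5779 to 8226 on day 5. In unsorted day 0 libraries it was 5494 to 8472, so it is not a measure of vessel cells alone.

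**Figure D3:**
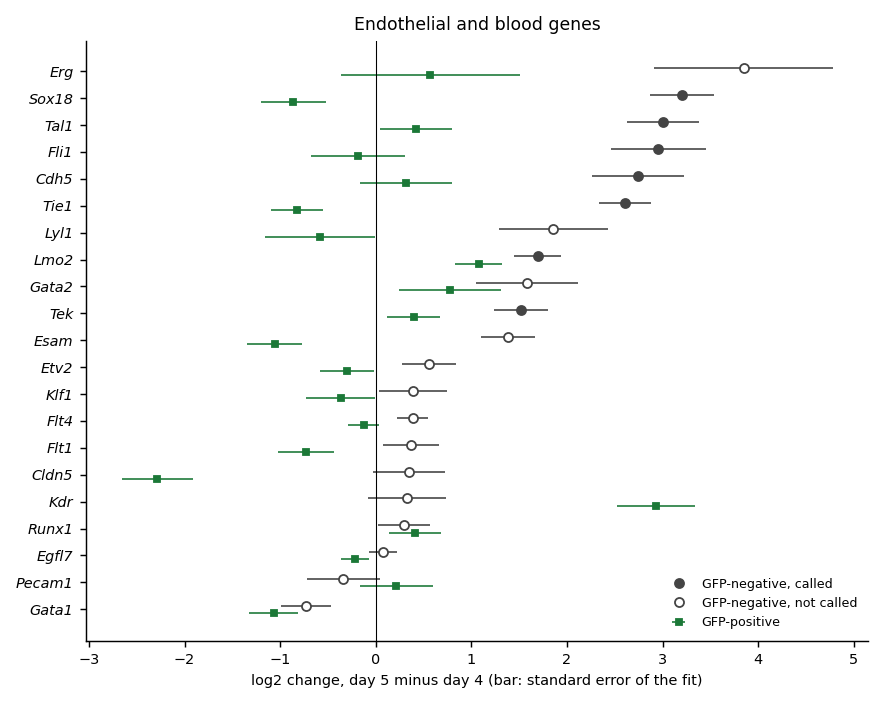
Change from day 4 to day 5 (horizontal axis, log2, with the standard error of the fit as bars) of the 21 endothelial and blood genes tested, in GFP-negative cells (black circles, filled where called) and GFP-positive cells (green squares). Sox18, Tal1, Fli1, Cdh5 and Tie1 rose by 2.61 to 3.20 in GFP-negative cells and changed by -0.86 to 0.42 in GFP-positive cells, and Kdr had the opposite order, at 0.32 and 2.93.

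The upstream windows of Tal1, Tek and Barhl2 are shown because these genes rose in the gate and had the same start in both sources. Capitals mark 3 motifs, each searched on both strands. The ETS core was searched as AGGAAG and, in the other spelling this factor family is known for, as CGGAAG. The GATA core was searched as AGATAA in the same windows. The SOX core was searched as ACAAAG and, in the other spelling known for this factor family, as ACAATG. The motifs do not overlap in these windows. Of all 32851 windows of the same length in the promoter table, 39.2% held the ETS core, 10.0% the GATA core and 25.2% the SOX core. Tal1 had 1 GATA match, Tek 1 SOX match and Barhl2 1 SOX match, and no other of these motifs was found in the 3 windows.
Tal1, chr4:115056176-115056425, plus strand: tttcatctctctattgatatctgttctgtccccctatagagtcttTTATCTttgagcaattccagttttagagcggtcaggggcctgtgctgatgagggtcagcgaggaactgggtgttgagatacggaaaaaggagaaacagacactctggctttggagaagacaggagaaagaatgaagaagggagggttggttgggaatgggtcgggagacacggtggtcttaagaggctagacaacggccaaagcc
Tek, chr4:94739039-94739288, plus strand: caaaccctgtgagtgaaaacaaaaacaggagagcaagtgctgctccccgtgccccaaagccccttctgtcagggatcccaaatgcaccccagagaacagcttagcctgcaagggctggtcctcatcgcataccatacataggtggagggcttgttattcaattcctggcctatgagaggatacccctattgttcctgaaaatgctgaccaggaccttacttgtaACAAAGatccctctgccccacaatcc
Barhl2, chr5:106458167-106458416, minus strand: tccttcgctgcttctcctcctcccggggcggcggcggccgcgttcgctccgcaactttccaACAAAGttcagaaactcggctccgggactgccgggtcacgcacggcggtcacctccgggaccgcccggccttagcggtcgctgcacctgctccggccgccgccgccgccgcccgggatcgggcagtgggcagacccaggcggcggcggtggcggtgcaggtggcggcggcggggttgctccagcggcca

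Of 14 Hedgehog pathway genes, 2 were higher, against 0.762% of all genes, and all 14 had changes above 0. Besides Shh, the target gene Gli1 rose from 582, 523 and 472 to 1919, 1408 and 1707 (log2-fold-change 1.67 ± 0.25, limma adjusted p = 0.000144). Ptch1, the receptor and target, was at 2679 to 3364 on day 4 and at 5521 to 7349 on day 5 (1.11, limma adjusted p = 0.000159), which was short of the fold threshold, and 11 of 14 genes had higher values without overlap, against 18.3% of all genes. The call of Gli1 held in 2 of the 6 fits that left out 1 library, and 0 of the 2 calls remained without the libraries that stood apart. Among 13 genes of retinoic acid metabolism, 2 were higher, against 0.762% of all genes, and 1 was higher without the libraries that stood apart. Crabp1, a retinoic acid-binding protein, was at 822, 1166 and 1576 and then at 3548, 3759 and 3082 (1.59), and Aldh1a1, a retinaldehyde dehydrogenase, at 4.51 to 6.12 and then at 43.3 to 58.2 (3.14). The call of Crabp1 held in 2 of the 6 fits that left out 1 library. Cyp26a1, which breaks retinoic acid down, was at 908 to 1695 on day 4 and 527 to 693 on day 5 (-1.18, limma adjusted p = 0.191).

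Of 23 matrix genes 2 were called higher, against 0.762% of all genes, and 18 had higher values without overlap, against 18.3% of all genes. Without the libraries that stood apart 1 was called. Col2a1, the collagen of notochord and cartilage that neuroepithelium also expresses, rose from 3735, 3354 and 2458 to 8944, 9097 and 10266 (log2-fold-change 1.59 ± 0.15, limma adjusted p = 7.29e-07), and Col3a1 was the other call. The median of this list was 0.72. Col1a1 was at 152, 150 and 188 on day 4 and at 1812, 791 and 355 on day 5 (2.29 ± 0.50, limma adjusted p = 0.00435), and the day 5 libraries differed widely. No gene was called among 12 Wnt targets and 14 BMP targets, of which 9 and 14 had changes above 0 and 6 and 6 had higher values without overlap, against 18.3% of all genes. Axin2, the standard Wnt feedback gene, was at 3510, 4125 and 4693 and then at 7054, 6558 and 6366 (0.71, limma adjusted p = 0.0327), and Id3, a BMP target, at 6342, 7025 and 8616 and then at 11392, 10275 and 11710 (0.61, limma adjusted p = 0.0266).

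Neural progenitor genes had 2 calls of 17, both higher, against 0.762% of all genes, and a median change of 0.55. Besides Zic1, the intermediate filament gene Vim rose from 1609, 2174 and 2521 to 8483, 6383 and 6132 (log2-fold-change 1.74 ± 0.18, limma adjusted p = 2.04e-06). Sox2, the general neural progenitor factor, was at 9581, 8752 and 6588 on day 4 and at 6471, 7510 and 7520 on day 5 (-0.20, limma adjusted p = 0.433). Of 15 proneural and Notch ligand genes 1 was called, and it was higher, against 0.762% of all genes. Neurog2, a proneural factor, was at 169 to 175 and then at 84.7 to 104 (-0.89, limma adjusted p = 0.255). Of 20 neuronal genes 1 rose and 1 fell, against 0.762% and 0.509% of all genes. Pou3f2, a POU factor of neural progenitors and neurons, rose from 58.4 to 88.8 to between 813 and 1155 (3.61), and Elavl3, an RNA-binding protein of postmitotic neurons, fell from 625, 646 and 470 to 158, 209 and 214 (-1.58). Tubb3, a neuronal tubulin, and Neurod1, a neuronal differentiation factor, were not called. Tubb3 was at 1669 to 1937 and then at 1227 to 1402 (-0.48), and Neurod1 at 48.1 to 91.5 and then at 53.5 to 65.8.

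**Figure D4:**
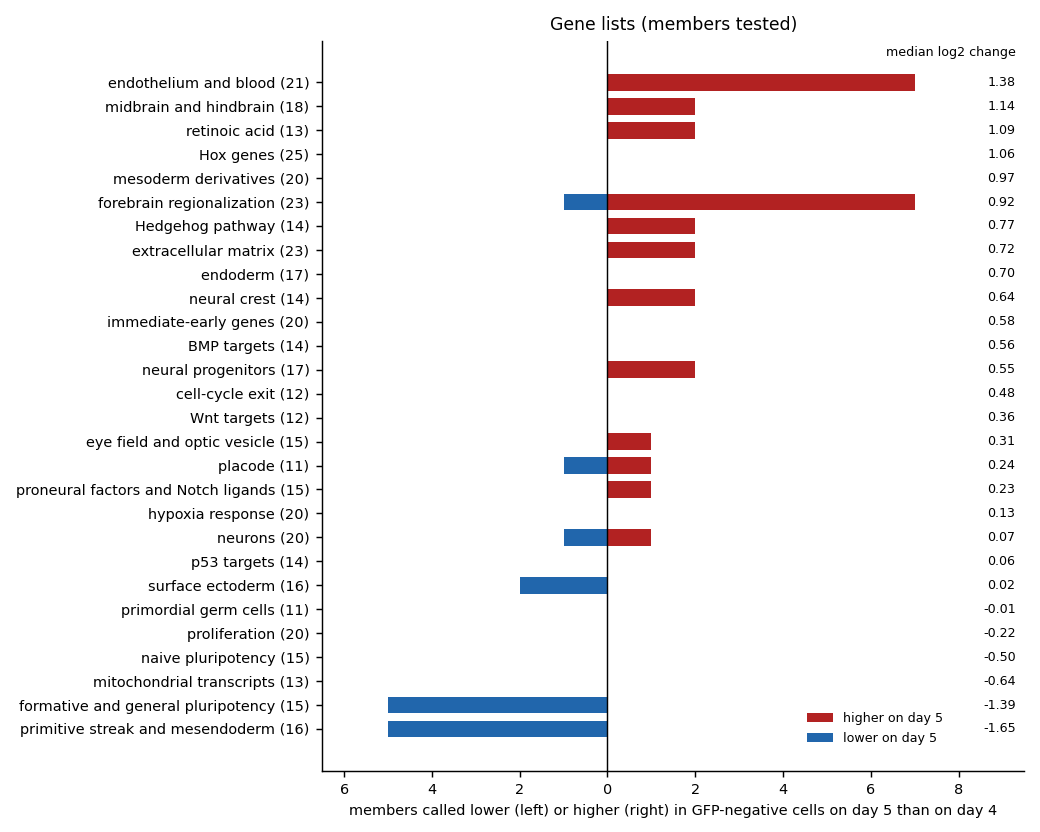
Members of the 28 gene lists called higher (red, right) or lower (blue, left) in GFP-negative cells on day 5 than on day 4, with the number tested in brackets and the median log2 change of the list at the right. Endothelial and forebrain lists had 7 rises each, the streak and formative lists had 5 falls each with medians of -1.65 and -1.39, and 13 lists had no call.

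The 13 lists without a call, the naive and Hox genes among them, held other candidate cell types and cell states. None of 17 endoderm and 20 mesoderm derivative genes was called, with medians of 0.70 and 0.97. Trh, at 5252, 5781 and 8184 on day 4 and 10215, 6226 and 8207 on day 5, is a member of the endoderm list, and Pdgfra, at 1244 to 2198 and 2491 to 2743, one of mesoderm derivatives. The summed level was 15121 to 21102 and then 19850 to 27888 for endoderm, and 3241 to 6864 and then 7064 to 10877 for mesoderm derivatives. Unsorted day 0 libraries held 19724 to 25264 for endoderm and 4928 to 11189 for mesoderm derivatives. Genes of proliferation had a median of -0.22, with 17 of 20 below 0 and 10 of 20 lower without overlap, against 15.9% of all genes. Top2a, the mitotic topoisomerase, was at 28371 to 28971 on day 4 and 23935 to 26853 on day 5 (log2-fold-change -0.18, limma adjusted p = 0.517, and 0.01 with quantile normalization). Genes of cell-cycle exit had a median of 0.48, and Cdkn1a, an inhibitor of cyclin-dependent kinases, was at 1461 to 1533 and then at 2242 to 2681 (0.69, limma adjusted p = 0.00565). Hypoxia, p53, primordial germ cell, immediate-early and mitochondrial genes had medians of 0.13, 0.06, -0.01, 0.58 and -0.64. Of 20 immediate-early genes, 19 were above 0 and 11 had higher values without overlap, against 18.3% of all genes. All 13 mitochondrial genes were below 0, and 3 were lower without overlap, against 15.9% of all genes. Immediate-early genes are induced by dissociation as well as by signals, and Egr1 was highest in replicate 1 on both days, at 631, 432 and 279 on day 4 and 1494, 790 and 467 on day 5. Their part in the other changes was not tested.

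Of the eye-field genes, Rax itself was lower but not past the thresholds. It was at 960, 1018 and 946 on day 4 and at 517, 412 and 413 on day 5 (log2-fold-change -1.13 ± 0.26, limma adjusted p = 0.00582). Six3, another eye-field homeobox gene, was at 4476, 4139 and 2847 and then at 1393, 1553 and 1401 (-1.37 ± 0.25, limma adjusted p = 0.000831), which was short of the fold threshold. Lhx2 was at 2288, 3013 and 2431 and then at 1989, 2240 and 1931 (-0.32, limma adjusted p = 0.581). GFP-positive cells held 9100 to 9967 of Rax and 12441 to 13426 of Six3 on day 4, and the part of cells with low GFP in the values of the GFP-negative gate was not tested. Pax6, which is shared with other neural cells, was at 2029, 2610 and 2627 and then at 4949, 4713 and 4385 (0.96, limma adjusted p = 0.0121). Six6, a homeobox gene related to Six3, was at 45.8, 53.7 and 18.7 and then at 138, 175 and 222 (2.25, limma adjusted p = 0.00225), and Otx2 was at 11738 to 13890 and 10761 to 11262 (-0.20). Of the 15 genes 1 was called higher, against 0.762% of all genes. This was Foxd1, a forkhead factor of the ventrotemporal retina, at 86.1, 81.5 and 120 and then at 599, 350 and 524 (2.33). The call was lost whichever of the 6 libraries was left out, and also without both libraries that stood apart.

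The change in GFP-negative cells was then set beside that in GFP-positive cells. These changes share no library, but per the study's methods the samples of each day were sorted into both gates. The changes therefore do not come from independent organoids. In GFP-positive cells 125 genes were higher (0.595%) and 187 lower (0.89%) on day 5 than on day 4. Of the 160 entries that rose in GFP-negative cells, 152 had a change of the same sign in GFP-positive cells and 39 were called there too, which is 24.4% of the GFP-negative and 31.2% of the GFP-positive list. Of the 107 that fell, 101 had the same sign and 50 were called in both, 46.7% and 26.7% of these lists. The median change of the higher entries was 2.39 in GFP-negative and 1.32 in GFP-positive cells, and that of the lower entries -1.99 and -1.64. The entries were chosen by their change in GFP-negative cells, so a smaller median in the other gate can come from that choice alone. No gene was called in opposite directions, and across all genes the changes had a Pearson correlation of 0.480 and a Spearman correlation of 0.431 (a description over genes, which are not independent). Pim2, Hesx1, Pcsk2, Pou5f1 and Fgf5 fell in both gates, and Lrtm1, Rspo2, Zic1 and Vim rose in both.

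A difference between the changes was called for 7 genes in favour of the GFP-negative cells (0.0333% of genes tested) and for 16 in favour of the GFP-positive cells (0.0762%). Of the genes that rose in GFP-negative cells, 2 were among the 7. These were Sox18, with a difference of 4.06 on the log2 scale (limma adjusted p = 9.6e-05), and Tie1, with 3.43 (limma adjusted p = 6.5e-05), which was named after its values were seen. In GFP-positive cells Sox18 was at 9.11, 11.0 and 6.01 on day 4 and at 5.48, 1.99 and 6.33 on day 5, and Tie1 at 7.10, 11.1 and 9.67 and then at 4.11, 4.91 and 5.24. The differences for Tal1 (2.58, limma adjusted p = 0.015), Fli1 (3.14, 0.027) and Cdh5 (2.42, 0.097) were not called.

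Sox21, a Sox factor of neural progenitors, was at 1367, 1483 and 1768 on day 4 and at 4353, 3627 and 4241 on day 5 in GFP-negative cells, and at 3806, 3946 and 4191 and then at 2595, 2272 and 2182 in GFP-positive cells. The difference of 2.17 ± 0.23 (limma adjusted p = 4.3e-05) joined higher values in one gate to lower values in the other, although neither change passed both thresholds. Chst15, a sulfotransferase of chondroitin chains, was at 835 to 863 and 587 to 679 in GFP-negative cells and fell from 938 to 1013 to between 166 and 188 in GFP-positive cells (difference 2.05, limma adjusted p = 9.2e-05). Scube2, a secreted factor that helps to release Hedgehog ligands, was at 986 to 1147 and 1244 to 1294 in GFP-negative cells and at 2858 to 3192 and 952 to 1206 in GFP-positive cells (difference 1.67), and Rasip1, a regulator of endothelial junctions, had a difference of 1.65.

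In the other direction, Aldh1a3, Cyp4v3 and Rerg rose in GFP-positive cells. Aldh1a3, a retinaldehyde dehydrogenase of the optic vesicle, was at 65.6, 67.7 and 79.6 and then at 160, 92.5 and 86.0 in GFP-negative cells, and at 66.9 to 91.4 and then at 808 to 944 in GFP-positive cells (difference -2.87, limma adjusted p = 0.00085). Cyp4v3, a fatty acid hydroxylase, was at 20.3 to 24.6 and 24.7 to 33.6 in GFP-negative cells and at 4.29 to 6.41 and 112 to 153 in GFP-positive cells (difference -4.09). Rerg, a small GTPase, had a difference of -3.04. Shisa2, an inhibitor of Wnt and FGF receptors, differed in pattern because it fell in GFP-negative cells, from 9195, 8196 and 8490 to 2418, 2448 and 2317 (log2-fold-change -1.85 ± 0.20, limma adjusted p = 2.25e-06), and was at 25129 to 25196 and 23092 to 29039 in GFP-positive cells. Its difference was -1.89 (limma adjusted p = 0.00086). Gstm7, a glutathione transferase with near copies in the genome, likewise fell in GFP-negative cells, from 129 to 176 to between 47.9 and 52.5, and had a difference of -1.81. Without the libraries that stood apart 2 differences in each direction were called, and leaving out any 1 of the 12 sorted libraries left 5 to 7 and 3 to 7.

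**Figure D5:**
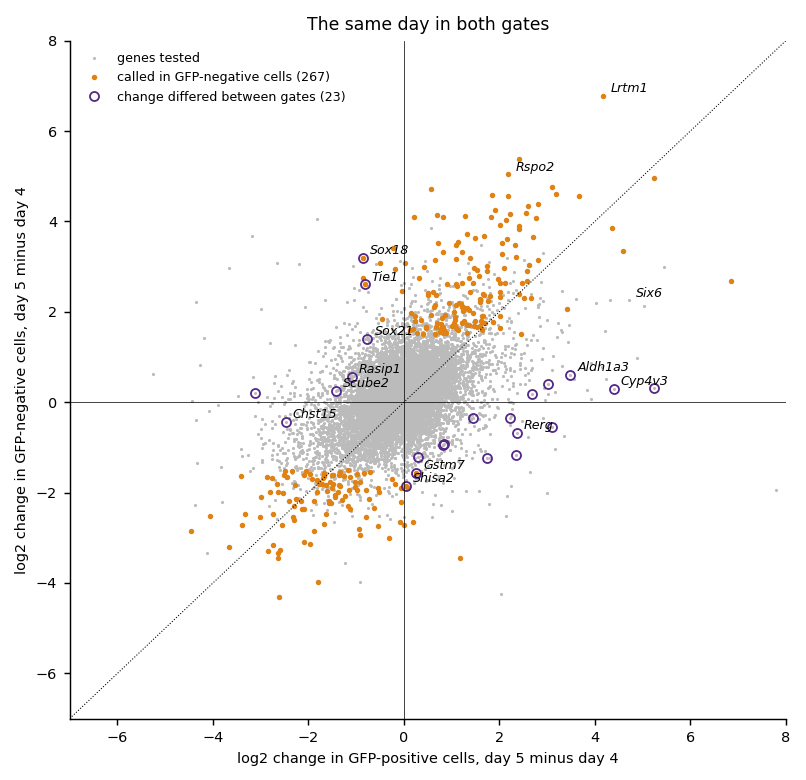
Change from day 4 to day 5 in GFP-negative cells (vertical axis, log2) against that in GFP-positive cells (horizontal axis, log2), 1 point per gene tested, with the 267 genes called in GFP-negative cells in orange and the 23 whose changes differed between the gates circled. Most orange points lie where both changes have the same sign, Sox18 and Tie1 lie at the left with changes of -0.86 and -0.82 in GFP-positive cells, and Aldh1a3 and Cyp4v3 lie at the right with 3.48 and 4.40.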

How the data were processed

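Polyadenylated RNA of sorted or unsorted cells was sequenced from TruSeq libraries. The authors pseudo-aligned reads with kallisto 0.43.1 to Ensembl coding and non-coding transcripts (mm10), and the deposited values are the authors' DESeq2-normalized counts, a signal that is not scaled by gene length. Whether counting used strand and which annotation release was used is not given in the sources used here. The table lists 49705 entries, and 12092 of them have no value above 0. Whole reads could not be recovered, so no count model was run. Values were transformed as log2(value + 1), kept at 10 or more in at least 3 libraries, and fitted with limma 3.58.1 (R 4.3.3) over all 24 libraries with 16 residual degrees of freedom, a variance trend and Benjamini-Hochberg adjustment per comparison. Fold changes are on that scale, which understates the change of low genes. A call needed a log2-fold-change over 1.5 in size with an adjusted p below 0.001. The difference between the gates is an interaction term of the same fit. Scripts were tested on simulated data.

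The genes, lists and comparison were chosen with earlier results of these data known. Named genes are the 12 largest rises and 12 largest falls without overlap at a group mean of 100 or more, leaving out predicted gene models, clones and annotated pseudogenes, up to 4 called genes per list or the 2 of highest level, the 6 largest differences between the gates in each direction under the same filters, and Rax, Pax6, Lhx2, Six3, Six6, Otx2 and Sox2. Other genes were named after their values were seen. Alternatives covered the pseudocount, the filter, the scaling, the samples in the fit, the thresholds, a replicate block and leaving out libraries. GFP itself was not analysed here. Some genes that the rule names are not reported here, and they stay in the counts.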

Additional observations from a re-analysis of the deposited data

Results flagged for a closer look

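The change from day 4 to day 5 differed between GFP-negative and GFP-positive cells, by the interaction term of the limma fit, for 9 genes given here, of 100 or more normalized counts. Values are the change in GFP-negative cells minus that in GFP-positive cells on the log2 scale, and no cause was tested. The difference was 2.17 for Sox21, 2.05 for Chst15, 1.67 for Scube2 and 1.65 for Rasip1, with limma adjusted p of 4.3e-05, 9.2e-05, 0.00055 and 0.00082. It was -4.09 for Cyp4v3, -3.04 for Rerg and -2.87 for Aldh1a3, with limma adjusted p of 0.00098, 4.3e-05 and 0.00085. Shisa2 and Gstm7 fell in GFP-negative cells and had differences of -1.89 and -1.81, with limma adjusted p of 0.00086 and 0.00024.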

How the results depend on the processing

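In GFP-negative cells, 160 higher and 107 lower genes became 100 and 55 when the fit held only the libraries of the comparison, 6 and 2 when limma's treat tested against the fold threshold, and 608 and 433 at an adjusted p under 0.05 and a log2-fold-change above 1. They became 65 and 58 without both libraries that stood apart, an alternative chosen after seeing the data, as was that of protein-coding genes only. Leaving out 1 of the 6 libraries gave 85 to 112 higher and 71 to 81 lower genes, and leaving out day 0 replicate 1, which is outside the comparison, gave 203 and 124. In GFP-positive cells, 125 higher and 187 lower genes became 9 and 8 with treat and 459 and 690 at the looser thresholds, the lower genes became 110 with only the libraries of the comparison, and leaving out 1 of their libraries gave 67 to 91 and 127 to 161, with 156 higher genes without day 0 replicate 1. The 7 differences in favour of GFP-negative cells became 15 with a pseudocount of 5, 25 with only the sorted libraries and 25 without day 0 replicate 1. The 16 in favour of GFP-positive cells became 8 without a filter, 8 with equal library totals, 10 without the variance trend and 26 without day 0 replicate 1. Both became 0 and 0 with treat, 105 and 85 at the looser thresholds, 2 and 2 without both libraries that stood apart, and 5 to 7 and 3 to 7 without 1 library. With the replicate number as a block, 140 higher and 103 lower genes were called in GFP-negative cells and 5 and 10 differences between the gates. Same-numbered samples of both days had correlations of -0.284, 0.241 and -0.215. These differ in sign and include the libraries that stood apart, so they cannot decide whether the numbers pair the samples. What moved the counts under these settings was not tested. Of 95 named genes 55 were called, and 33 of these calls held in all 6 fits that left out 1 library. Leaving out libraries could not change a direction, since the days did not overlap in any called gene. None of the 55 changed direction under the alternatives run for single genes, which were the pseudocount, filter, scaling, block and left-out libraries. Of the 40 not called, 6 changed sign under at least 1 of these. Without both libraries that stood apart 29 of the 55 kept their call, 25 lost it and 1 could not be tested. The folds of low genes are limited, since a pseudocount of 1 sets part of them.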

Other observations

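Wnt ligands were counted as a family that was chosen after its values were seen. Of 18 ligands tested, 4 were higher and 1 lower on day 5, against 0.762% and 0.509% of all genes, with a median change of 0.64 on the log2 scale. Wnt7b rose from 405, 399 and 623 to 4042, 3564 and 3914 normalized counts (log2-fold-change 3.04, limma adjusted p = 7.97e-06). Wnt8b rose from 865, 1077 and 1261 to 5504, 5685 and 5966 (2.44). Wnt5a and Wnt9a rose by 1.72 and 1.63. Wnt8a, a ligand of the posterior epiblast and streak, fell from 315, 351 and 244 to 61.6, 61.5 and 49.2 (-2.37). Wnt7b and Wnt8a were also called in GFP-positive cells, with changes of 2.62 and -2.09. Of the 6 fits that left out 1 library, the call of Wnt5a held in 0 and that of Wnt8b in 1.

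Of 25 imprinted genes tested, also chosen after their values were seen, 3 were higher and 1 lower, against 0.762% and 0.509% of all genes, with a median of 0.44. Of the 6 fits that left out 1 library, the call of Airn held in 0 and that of Snrpn in 2. Dlk1, a non-canonical Notch ligand, rose by 1.62 and Airn, a non-coding RNA antisense to Igf2r, by 2.23. Since it is not stated whether counting used strand, reads from sequence that Airn and Igf2r share cannot be told apart. Igf2r itself had a change of -0.17. Plagl1, a zinc finger factor, rose from 179, 152 and 105 to 727, 992 and 1363 (2.80). Snrpn fell from 13409, 12452 and 13464 to 5025, 4539 and 4342 (-1.50). H19, at 9067, 12143 and 18936 on day 4 and 42485, 29872 and 25439 on day 5, and Igf2 had changes of 1.32 and 1.19, short of the fold threshold.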
